A study of Homo sapiens with 38 samples.

Results

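A set of 10 genes of the contractile apparatus of smooth muscle cells and myofibroblasts was followed in IMR90, a line of human lung fibroblasts, as growing, low serum, confluent and ras-senescent cells. They were chosen by symbol: ACTA2, ACTG2, CNN1, TAGLN, TPM1, TPM2, CALD1, MYL9, NEXN and LMOD1. This choice, and that of the wider lists below, was made with earlier results of these data known. The shares of all genes tested that stand beside counts of these genes are therefore descriptions and not tests. In all, 36 of the 54613 probe sets on the arrays named 1 of these 10 genes, and no probe set named a listed gene together with another gene. Of the 36 probe sets, 21 passed the filter on low values (a log2 value above 5 on at least 2 arrays of experiment 1), and every one of the 10 genes kept at least 1 of them. The brightest probe set of each gene, by its mean over all arrays, stood for the gene, and these 10 were tested together with the other genes that passed, 8511 of 19775.

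All cells held a construct, either MLP (the vector alone) or a hairpin RNA against 1 of the 3 pocket proteins, RB, p107 or p130 (shRB, shp107 and shp130), which bind E2F factors and hold back genes of the cell cycle. Low serum cells were held in medium with 0.1% serum, and the labels give 10% serum wherever they state nothing else. Both low serum and confluent cells are labelled quiescent, and senescent cells are labelled as ras-induced, so that all senescent groups, the senescent vector group included, share the oncogene. Experiment 1 held 32 Affymetrix arrays, 2 for each of the 16 pairings of state and hairpin, and experiment 2 held 6 arrays, 2 each of growing cells with vector, of senescent cells with vector and of senescent cells with shRB. The labels do not say whether the 2 arrays of a group came from separate cultures, so p-values here reflect array-to-array spread only, and that spread may be technical.

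Values are on a log2 scale, on which a difference of 1 is a change of 2-fold. An SE here comes from a spread pooled over all groups of an experiment, so it does not follow the spread of the groups compared. The array medians lay between 3.27 and 3.41, and values near these are background. RB1 fell with shRB by 4.05 to 5.32 in the 4 states of experiment 1 and by 2.28 in experiment 2, and RBL2, the gene for p130, fell with shp130 by 2.35 to 2.88. RBL1, the gene for p107, was dim and was not called with shp107 in any state (-0.74 growing, -1.30 in low serum, -0.48 at confluence and -0.13 in senescence), so the shp107 arrays have no check of their label here. Of 8 fibroblast markers, 7 were above 5 on all 38 arrays and PDGFRB on 25. Of 7 smooth muscle markers, SMTN and ACTG2 were above 5 on all 38 arrays, CNN1 on 25, LMOD1 on 22, MYOCD on 17, and MYH11 and DES on 0, and 3 of the 7 are among the 10 genes. Not above 5 on any array were the 4 matched striated muscle markers, the 3 blood markers, 4 of 5 endothelial markers (all but TEK) and 4 of 5 epithelial markers (all but KRT18). The replicates of confluent vector cells were the least alike of any group. The SD of their differences over the tested genes was 0.794, and for ACTA2 they read 8.86 and 10.81. For the main results that rest on this pair, values with 1 of the 2 arrays left out are given as well.

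Smooth muscle alpha-actin (ACTA2) and gamma-actin (ACTG2) form the thin filaments of contractile cells. The appearance of alpha-actin in a fibroblast is the classical sign of a myofibroblast. Tropomyosins (TPM1, TPM2) lie along the filament, caldesmon (CALD1), calponin (CNN1) and transgelin (TAGLN) bind its side, leiomodin (LMOD1) starts new filaments, nexilin (NEXN) ties filaments to adhesions, and MYL9 is the regulatory light chain of the myosin that pulls on them. Many of these genes are known targets of serum response factor, SRF, which binds a DNA element called the CArG box and is driven by the actin-sensing MRTF cofactors, by myocardin and, indirectly, by TGF-beta.

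Promoter sequence is shown for 3 of the genes that moved together across states. ACTG2 is shown because it holds matches to the CArG box, and CNN1 because its level varied most. ACTA2 is shown for matches to a CArG-like form, which was added after the sequences were seen. The windows, from RefSeq on GRCh38.p14, are the 250 bases before a transcript start of the gene, read 5′ to 3′ on the gene's strand. ACTG2 lies at chr2:73892758-73893007 (plus strand), ACTA2 at chr10:88952774-88953023 (minus strand) and CNN1 at chr19:11538601-11538850 (plus strand). Capitals mark a CArG box in ACTG2 and a CArG-like box, with a G or C at 1 of its middle positions, in ACTA2. The other ACTA2 window, at chr10:88991338-88991587, had no match and is not printed. CNN1 had neither.
ACTG2: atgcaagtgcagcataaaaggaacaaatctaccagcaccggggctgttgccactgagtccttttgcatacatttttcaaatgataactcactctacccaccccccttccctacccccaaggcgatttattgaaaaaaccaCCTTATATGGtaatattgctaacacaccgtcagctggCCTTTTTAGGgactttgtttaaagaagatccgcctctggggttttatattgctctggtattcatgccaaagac
ACTA2: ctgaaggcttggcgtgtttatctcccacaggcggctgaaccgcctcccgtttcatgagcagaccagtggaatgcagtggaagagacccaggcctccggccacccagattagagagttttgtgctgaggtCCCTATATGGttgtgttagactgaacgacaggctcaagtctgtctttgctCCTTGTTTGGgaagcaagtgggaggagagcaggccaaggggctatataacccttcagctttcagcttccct
CNN1: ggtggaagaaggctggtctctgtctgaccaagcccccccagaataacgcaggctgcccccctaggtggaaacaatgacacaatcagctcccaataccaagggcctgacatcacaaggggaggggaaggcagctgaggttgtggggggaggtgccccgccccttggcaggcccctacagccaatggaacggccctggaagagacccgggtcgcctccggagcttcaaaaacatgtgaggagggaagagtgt

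Windows were held for 8 of the 10 genes, all but TAGLN and MYL9. Searched on both strands, the CArG box was in 1.16% of all 35114 windows, or in those of 1.44% of 27303 genes, and, among the 8 genes, only in ACTG2, with first bases 110 and 73 bases before the start. The CArG-like form, which was added after the sequences were seen and overlaps no exact match, was in 5.96% of all windows (7.30% of genes) and in those of ACTA2 (121 and 71 bases before the start) and CALD1 (26 bases). CATTCC, the element of the TEAD factors, was in 11.9% of all windows (14.3% of genes) and in at least 1 window of ACTA2, CALD1, NEXN and LMOD1, genes of which some have several windows. TTTCCCGC or TTTGGCGC, forms of the E2F site, were in 1.93% of all windows (2.36% of genes) and in none of the 8 genes. A match is a description of the sequence, and its use in these cells was not measured.

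In growing vector cells most of the 10 genes were among the brighter probe sets. The 2 arrays read 11.93 and 12.15 for ACTA2, 12.08 and 12.10 for ACTG2, 12.29 and 12.31 for TAGLN, 12.46 and 12.49 for TPM1, and 12.34 and 12.26 for CALD1. CNN1 and LMOD1 were lower on their own probe sets, at 7.88 and 8.41 for CNN1 and at 6.12 and 6.46 for LMOD1. Over the 16 groups of experiment 1, the group means of CNN1 spanned 6.08, from 3.53 in senescent shRB to 9.61 in low serum shp107 cells, the widest range of the 10. NEXN spanned 4.76 and LMOD1 3.94. The means of ACTA2, ACTG2, MYL9 and TAGLN spanned 3.38, 3.38, 3.18 and 2.74, and those of CALD1, TPM2 and TPM1 only 1.18, 1.10 and 1.03.

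**Figure D1:**
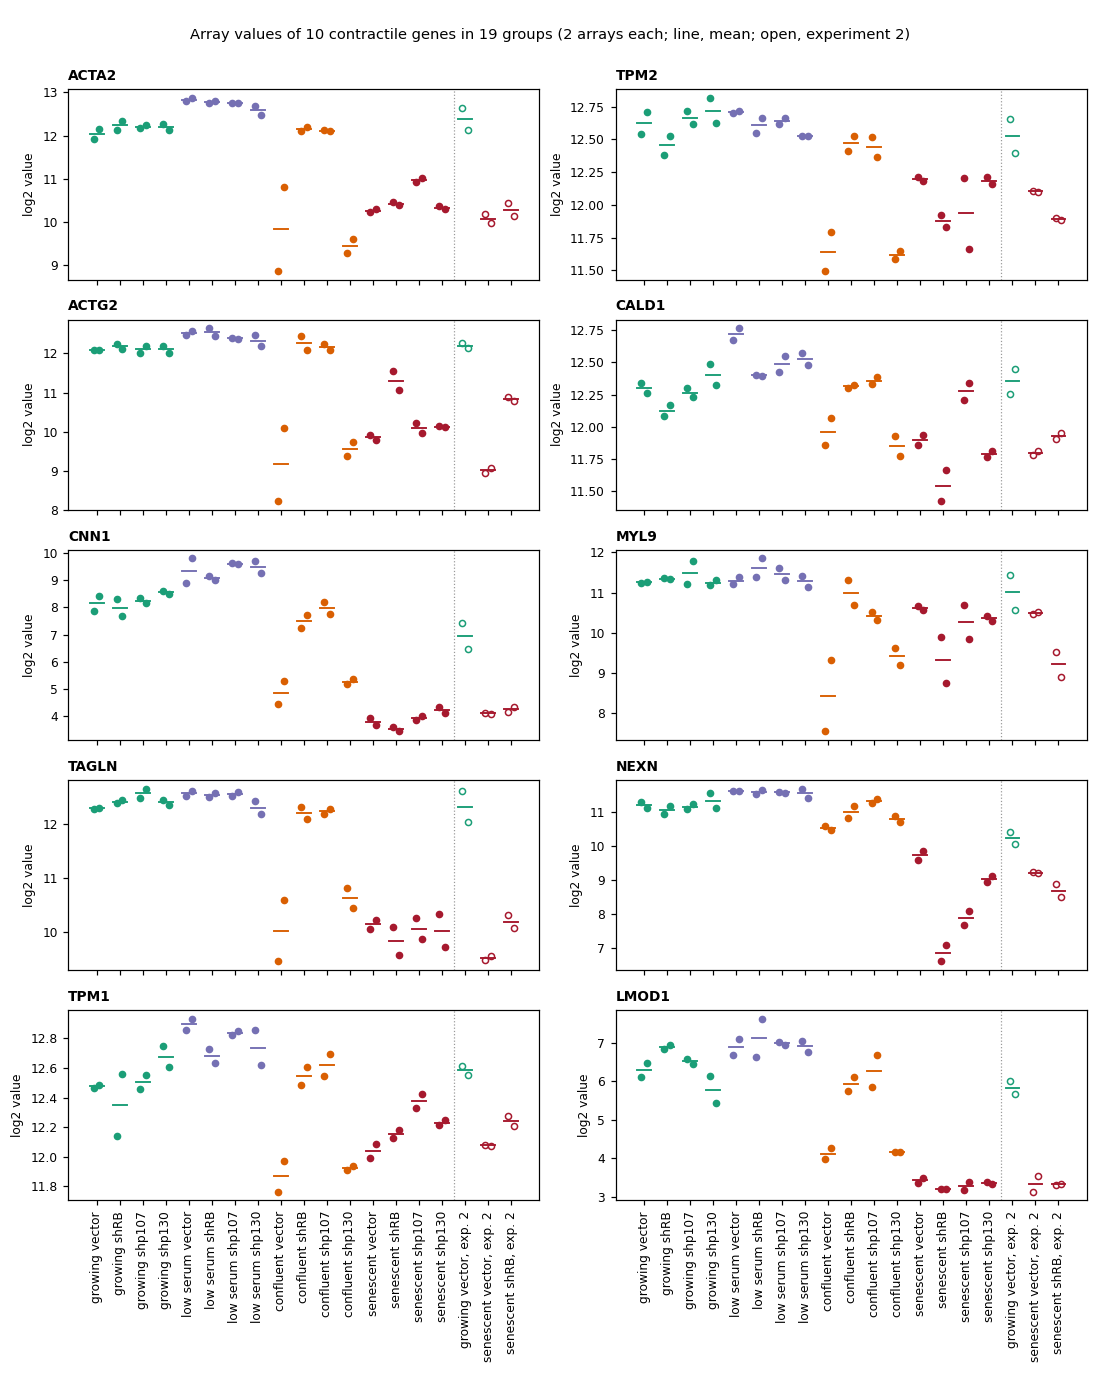
The log2 value (vertical axis) of each of the 10 genes on each of the 38 arrays, by group (horizontal axis); points are arrays, lines are means of 2 arrays and open points are experiment 2. Growing and low serum groups are high for every hairpin. Confluent vector and shp130 arrays are low, while confluent shRB and shp107 arrays are near growing cells for most genes. Senescent groups are low for most genes, with CNN1 between 3.45 and 4.35.

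The order of the groups was alike for most of the 10 genes. A low serum group had the highest mean for 8 of them, and for TAGLN and TPM2 a growing group did (shp107 and shp130, respectively), a lead over the low serum groups that was within the spread of the arrays. The lowest group was confluent vector or confluent shp130 for ACTA2, ACTG2, TPM1, TPM2 and MYL9, and senescent shRB for CNN1, TAGLN, CALD1, NEXN and LMOD1. The correlation of each gene's 16 group means with the mean of the other 9 genes, after standardising each, ran from 0.726 for NEXN to 0.968 for TAGLN. These correlations describe groups that fall into a high and a low cluster and share their arrays.

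In low serum none of the 10 genes was called lower than in growing cells. CNN1, which restrains the actin-activated myosin ATPase, was the gene that rose in vector cells, by 1.19 ± 0.30 (SE; n = 2 against 2), or 2.29-fold. Its arrays read 8.88 and 9.80 in low serum against 7.88 and 8.41, so the groups did not overlap. The other 9 changes were between 0.04 (MYL9) and 0.79 (ACTA2) and were not called, against 13.0% of the 8511 genes called in this comparison and 6.69% called higher. The median change of the 10 was 0.42 and that of all genes tested 0.03. By limma with Benjamini-Hochberg adjustment over all genes tested, CNN1 had an adjusted p of 0.0108. The call was lost without growing vector replicate 1 (change 0.93, adjusted p 0.125) and without low serum vector replicate 2 (0.73, adjusted p 0.166).

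CNN1 also rose in low serum with each hairpin, by 1.09 with shRB, 1.37 with shp107 and 0.93 with shp130, tests that use other arrays than the vector comparison. LMOD1 rose with shp130, by 1.13. In these comparisons 6.43%, 6.8% and 9.8% of all genes tested were called. Single arrays decided these calls: CNN1 stayed called in 1 of 4 fits without an array for shRB, 2 of 4 for shp107 and 0 of 4 for shp130 (adjusted p up to 0.279, 0.0764 and 0.322), and LMOD1 in 2 of 4. Averaged over vector and the 3 hairpins, with 8 arrays on each side, 6 of the 10 genes rose: CNN1 by 1.15, LMOD1 by 0.61, ACTA2 by 0.57, NEXN by 0.40, TPM1 by 0.29 and CALD1 by 0.26. ACTG2, TAGLN, TPM2 and MYL9 were not called. In that averaged test 19.2% of all genes tested were called higher.

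Confluence lowered 9 of the 10 genes in vector cells. The 2 smooth muscle actins, transgelin, calponin, leiomodin and the light chain MYL9 fell more than 4-fold, and the tropomyosins and nexilin by less than 2-fold. The ACTG2 arrays read 8.22 and 10.10 in confluent cells against 12.08 and 12.10 in growing cells, a fall of 2.93 ± 0.35. CNN1 read 4.47 and 5.28 against 7.88 and 8.41, and it had the largest fall, of 3.27 ± 0.30 or 9.63-fold. No confluent array reached a growing array for any of the 10 genes. The share of all genes tested without such overlap was not counted, so this does not set the 10 genes apart. In low serum, 8 of the 10 genes had no overlap with growing cells either, and 1 was called.

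MYL9 read 7.56 and 9.32 in confluent vector cells against 11.25 on both growing arrays, and it fell by 2.81 ± 0.41. ACTA2 read 8.86 and 10.81 against 11.93 and 12.15, and it fell by 2.20 ± 0.34. TAGLN read 9.45 and 10.60 against 12.29 and 12.31, and fell by 2.27 ± 0.27. For each of these 3 genes and for ACTG2, confluent replicate 1 was the lower array by more than 1. The size of these falls is therefore uncertain, while every confluent array was below every growing array. Without confluent vector replicate 1, the change was -1.98 for ACTG2, -1.94 for MYL9 and -1.69 for TAGLN. The confluent vector SD of ACTA2 was 1.38, against a median group SD of 0.05, so the pooled SE understates the spread of this pair.

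LMOD1 fell by 2.17 ± 0.29, to 3.98 and 4.26, close to background, so its fall may be a lower bound. Both values were below the filter, which LMOD1 passed through other groups. TPM2 fell by 0.98 ± 0.17, NEXN by 0.68 ± 0.21 and TPM1 by 0.61 ± 0.16. CALD1 was not called, at -0.34 ± 0.15 (adjusted p 0.0996). Among all genes tested 25.1% were called in this comparison and 14.5% were called lower, against 9 of the 10 genes here. The median change was -2.19 for the 10 genes and -0.05 for all genes tested.

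Adjusted p-values of the 9 genes (limma, Benjamini-Hochberg) ran from 1.21e-07 for CNN1 to 0.0201 for NEXN. Without confluent vector replicate 1, ACTA2 fell by 1.23 and the TPM1 call was lost (-0.50, adjusted p 0.0696). TPM1 was also lost without growing vector replicate 2, and NEXN without either growing array or without confluent replicate 2 (adjusted p up to 0.123). When only the 4 arrays of these groups were fitted, 2 of the 9 genes stayed called, CNN1 and LMOD1.

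**Figure D2:**
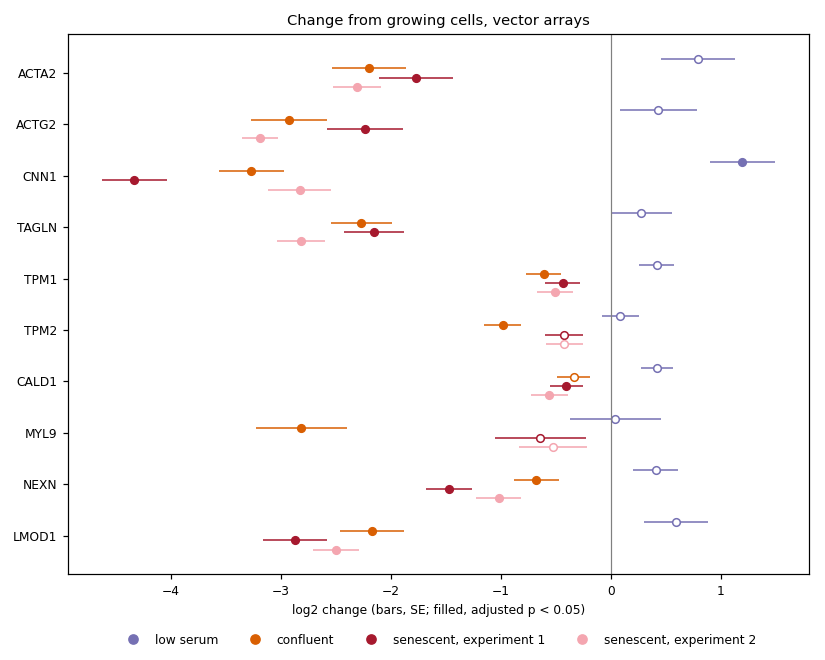
Log2 change from growing cells (horizontal axis) of the 10 genes (vertical axis) in vector cells, for low serum, confluent and senescent cells of experiment 1 and senescent cells of experiment 2; bars are SE, n = 2 arrays per group, and filled points have an adjusted p under 0.05. Changes in low serum lie between 0.04 and 1.19, MYL9 fell in confluent cells and was not called in senescent cells, and CNN1 fell by 4.33 in senescence. The SE is pooled over all groups of each experiment.

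The fall at confluence was also present in shp130 cells and was smaller or not called in shRB and shp107 cells, each set against growing cells with the same hairpin. With shp130, 9 genes fell, CALD1 (-0.55, lost in 2 of 4 fits without an array) among them and NEXN not, and the fall was 3.27 for CNN1, 2.75 for ACTA2 and 2.55 for ACTG2. With shRB, LMOD1 was the only gene called (-0.96), a call lost when any 1 of its 4 arrays was left out (adjusted p up to 0.291), and the 10 changes had a median of -0.08. With shRB, 1 further probe set each of TPM1 (-1.11, adjusted p 0.0388) and TPM2 (-1.16, adjusted p 0.0105) was also called lower. With shp107, none was called, the median was -0.16 and the changes ran from -1.07 to 0.16. The change of -1.07, in MYL9, passed the threshold with only the groups compared in the fit (limma, adjusted p 0.0482). In all genes tested, 18.6% were called with shp130, 11.1% with shRB and 8.15% with shp107, so the comparison in shp107 cells did make calls elsewhere.

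Set directly against confluent vector cells, shRB raised 8 of the 10 genes and shp107 raised 9. ACTG2 read 12.45 and 12.09 with shRB and 12.24 and 12.10 with shp107, against 8.22 and 10.10 with vector. It was 3.11 ± 0.35 higher with shRB and 3.0 ± 0.35 higher with shp107. CNN1 read 7.26 and 7.73 with shRB and 8.18 and 7.76 with shp107, against 4.47 and 5.28. It was higher by 2.62 ± 0.30 and by 3.09 ± 0.30, respectively. All shRB and shp107 arrays lay above both vector arrays for both genes, and near the levels of growing cells.

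The ACTA2 arrays read 12.11 and 12.19 with shRB and 12.12 and 12.11 with shp107, against 8.86 and 10.81, and the gene rose by 2.31 and 2.28 (SE 0.34 for both). TAGLN rose by 2.18 and 2.21, LMOD1 by 1.81 and 2.15, and MYL9 by 2.56 and 1.99. TPM2 rose by 0.83 and 0.80 and TPM1 by 0.68 and 0.75. NEXN rose with shp107 (0.80) and was not called with shRB (0.47), and CALD1 was not called with either (0.35 and 0.40). The median change of the 10 genes was 1.99 with shRB and 2.07 with shp107, and that of all genes tested -0.07 and 0.01. Of all genes tested, 17.5% were called with shRB (7.0% higher) and 13.5% with shp107 (7.32% higher). These comparisons share the confluent vector arrays, so their likeness is not independent.

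The set of confluent vector arrays bears on sizes and on some calls. With confluent vector replicate 1 left out, the ACTG2 rise was 2.17 with shRB and 2.06 with shp107. Without confluent vector replicate 1, the ACTA2 rise was 1.34 with shRB and 1.30 with shp107, the MYL9 rise 1.68 with shRB, and 2 calls were lost, MYL9 with shp107 (1.11, adjusted p 0.0812) and TPM1 with shRB (0.58, adjusted p 0.0641). NEXN with shp107 was lost without confluent vector replicate 2 or without confluent shp107 replicate 2. With only the 4 arrays of each pair of groups fitted, no gene was called with shRB and 1, CNN1, with shp107.

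Comparisons that leave the vector arrays out gave a like picture. Confluent shRB cells exceeded confluent shp130 cells in 9 of the 10 genes, by 2.71 in ACTG2, 2.70 in ACTA2, 2.21 in CNN1 and 1.77 in LMOD1 (18.7% of all genes tested called), with NEXN not called. Of these 9 calls, CALD1 (0.46) was lost without any 1 of the 4 arrays, MYL9 (1.58) without 2 of them (confluent shRB replicate 1 or shp130 replicate 2) and TPM1 (0.63) without confluent shRB replicate 2. Confluent shRB and shp107 cells were not called different in any of the 10 genes, with differences between -0.48 and 0.57, and 2 of all genes tested were called, or 0.0235%. With 2 arrays a group, smaller differences were not resolved.

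Between these confluent groups, fibroblast markers moved in the same direction as the 10 genes. The mean over the 8 markers was 11.62 in confluent shRB and 11.51 in confluent shp107 cells, against 10.87 with vector and 10.82 with shp130. The lowest marker, PDGFRB, was at 5.07 with vector and 5.89 with shRB. From growing to confluent vector cells the marker mean did not fall (10.86 and 10.87), while 9 of the 10 genes did. In growing shRB cells the marker mean was 11.24, below that of confluent shRB cells. The part of the markers in the result was not tested. In bulk RNA, fewer cells with the transcript and less of it in each cell cannot be told apart.

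With shp130 against vector, no gene of the 10 was called in confluent cells. ACTA2 read 9.29 and 9.61 with shp130, between the vector arrays, and MYL9 read 9.62 and 9.21 against 7.56 and 9.32. The 10 changes ran from -0.39 to 0.98, and 0.0235% of all genes tested were called (456 had an unadjusted p under 0.05). The 2 vector arrays decide this result: without replicate 1, ACTA2 was 1.37 lower with shp130 (adjusted p 0.000149), and without replicate 2, ACTG2 was 1.34, TAGLN 1.17 and MYL9 1.86 higher (adjusted p 0.00683, 0.0430 and 0.0312).

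**Figure D3:**
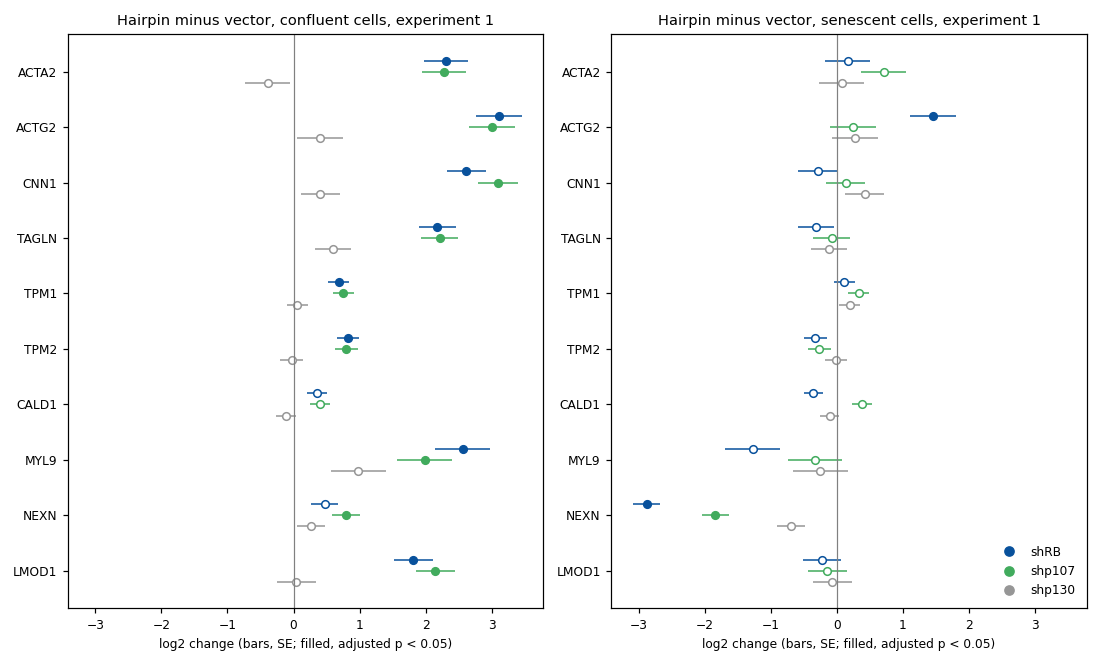
Log2 change of each gene (vertical axis) with shRB, shp107 or shp130 against vector (horizontal axis), in confluent cells on the left and senescent cells on the right; bars are SE, n = 2 arrays per group, and filled points have an adjusted p under 0.05. With shRB and shp107, ACTG2 rose by 3.11 and 3.0 in confluent cells, while in senescent cells ACTG2 rose only with shRB and NEXN fell with both. The SE is pooled over all groups of the experiment.

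In growing and low serum cells none of the 10 genes was called with any hairpin. The changes ran from -0.51 to 0.60 in growing cells and from -0.32 to 0.33 in low serum. Few genes were called in these comparisons at all: 0.188%, 0.0% and 0.0587% of those tested for shRB, shp107 and shp130 in growing cells and 0.0822%, 0.0352% and 0.27% in low serum, or 0 to 23 genes by limma, with 117 to 704 at an unadjusted p under 0.05. The difference between the effect at confluence and the effect in growing cells was itself called for 6 genes with shRB, ACTA2, ACTG2, CNN1, TAGLN, TPM2 and MYL9, and for 5 with shp107, ACTA2, ACTG2, CNN1, TAGLN and LMOD1. Of all genes tested, 2.55% and 3.35% had such a difference. In senescent cells only NEXN had one, with shRB and with shp107, where 1.99% and 1.17% of all genes did.

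Ras senescence lowered 8 of the 10 genes in vector cells of experiment 1. CNN1 fell most, by 4.33 ± 0.30 or 20.1-fold, from 7.88 and 8.41 to 3.94 and 3.68. LMOD1 fell by 2.87 ± 0.29, from 6.12 and 6.46 to 3.35 and 3.49. Both ended near background, so these falls may be lower bounds. Neither gene was above 5 on any senescent array of either experiment. Both thus passed the filter only through groups where they are high, and their place among the falls owes something to that filter.

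The actins and transgelin fell but stayed well above background. ACTG2 read 9.92 and 9.80 in senescent cells and fell by 2.23 ± 0.35. TAGLN read 10.06 and 10.23 and fell by 2.15 ± 0.27, and ACTA2 read 10.23 and 10.30 and fell by 1.77 ± 0.34. NEXN read 9.58 and 9.86 against 11.29 and 11.10 and fell by 1.47 ± 0.21. TPM1 and CALD1 fell by 0.44 and 0.41, and each of these calls was lost when any 1 of the 4 arrays was left out (adjusted p 0.105 to 0.206 for TPM1 and 0.107 to 0.2 for CALD1). TPM2 (-0.42, adjusted p 0.0747) and MYL9 (-0.64, adjusted p 0.282) were not called. MYL9 passed the threshold when only the 4 arrays compared were fitted (adjusted p 0.0380).

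In vector cells, both senescent arrays were below both growing arrays in each of the 10 genes. In low serum, the arrays of 8 of the 10 genes did not overlap the growing ones either, though 1 gene was called. The share of all genes tested without overlap was not counted, so these counts of overlap do not set the 10 genes apart. Of all genes tested 25.4% were called and 16.2% called lower, and the median change was -1.62 for the 10 genes and -0.10 for all. Within shRB, shp107 and shp130 cells, 8, 8 and 9 of the 10 genes fell from growing to senescent cells, with a median change of -1.91, -1.62 and -1.92 (32.8%, 38.2% and 32.7% of all genes called). Calls among TPM1, TPM2, CALD1 and MYL9 in these hairpin groups were the ones that single arrays could end. Averaged over vector and hairpins, all 10 genes fell, by 0.30 to 4.35 (59.9% of all genes called). The mean over the 8 fibroblast markers was 9.79 in senescent and 10.86 in growing vector cells, and the part of this in the result was not tested.

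Experiment 2 gave 8 lower genes again, the same 8, on its own arrays. ACTG2 fell by 3.19 ± 0.17, from 12.27 and 12.13 to 8.95 and 9.07. CNN1 fell by 2.83 ± 0.29, from 7.43 and 6.46 to 4.14 and 4.09. TAGLN fell by 2.82, LMOD1 by 2.50, ACTA2 by 2.31, NEXN by 1.02, CALD1 by 0.56 and TPM1 by 0.51. TPM2 (-0.42) and MYL9 (-0.52) were not called in either experiment. In experiment 2, 39.2% of all genes were called and 20.6% called lower, and the median change was -1.66 for the 10 genes and 0.01 for all.

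The CNN1 arrays of growing cells were lower in experiment 2 (7.43 and 6.46) than in experiment 1 (7.88 and 8.41), and its senescent arrays read 4.14 and 4.09 there and 3.94 and 3.68 in experiment 1. TPM1 and CALD1 kept their call in 1 of 4 fits that left out an array. MYL9 became called without growing replicate 2 of experiment 2 (-0.97, adjusted p 0.0244), as did TPM2 (-0.55, adjusted p 0.0435).

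Senescent vector cells were also set directly against confluent vector cells. Of the 10 genes, 2 were called lower in senescence, CNN1 (1.06 lower) and NEXN (0.80 lower). MYL9 (2.17) and TPM2 (0.56) were called higher, and 6 were not called. With 33.4% of all genes called, this count does not set the 10 genes apart. With only the 4 arrays of these groups fitted, none of the calls remained (limma, adjusted p 0.0875 for MYL9 to 0.182 for TPM2). MYL9 read 10.66 and 10.56 in senescent against 7.56 and 9.32 in confluent cells, and NEXN 9.58 and 9.86 against 10.58 and 10.45, so neither pair of groups overlapped. ACTG2 was not called (0.69), and its change was -0.25 without confluent vector replicate 1 and 1.64 without replicate 2. The MYL9 call stood without any 1 of the 4 arrays (change 1.29 to 3.05), and NEXN was lost without senescent vector replicate 1 (-0.66, adjusted p 0.0688). TPM2 was lost without confluent vector replicate 1 or either senescent array, and CNN1 without confluent vector replicate 2 (-0.66, adjusted p 0.163) or senescent vector replicate 2. Against low serum vector cells, all 10 genes were lower in confluent and 9 in senescent cells (21.3% and 38.9% of all genes called), the TPM2 call in senescent cells being lost without any 1 of its 4 arrays.

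In senescent cells the hairpins changed few of the 10 genes, and in opposite directions. NEXN fell further with shRB, to 6.59 and 7.09 from 9.58 and 9.86 with vector, a change of -2.88 ± 0.21 or 7.35-fold. It fell with shp107 to 7.68 and 8.09, a change of -1.84 ± 0.21. With shp130 it read 8.92 and 9.12, a change of -0.70 that was not called (adjusted p 0.0976). The arrays of the 4 groups did not overlap, and shRB was lower than shp107 by 1.04 and than shp130 by 2.18, both called (22.6% and 12.6% of all genes called). With only the groups compared in the fit, the call against shp107 was lost (limma, adjusted p 0.164). The second NEXN probe set fell with shRB by 2.51, and its change with shp107 was -0.66 and not called. The representative's fall with shp107 was called in every fit that left out 1 array (-2.04 to -1.64) and was not called when only the 4 arrays compared were fitted (adjusted p 0.114).

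ACTG2 moved the other way. It read 11.54 and 11.08 with shRB against 9.92 and 9.80 with vector, a rise of 1.45 ± 0.35, and it was 1.21 above shp107 and 1.18 above shp130, calls that were lost without senescent shRB replicate 1 (0.98 and 0.95) and without 1 or both of the other group's arrays (adjusted p up to 0.220). The call against shp107 was also lost with only the groups compared in the fit (limma, adjusted p 0.122). The ACTG2 arrays with shp107 (10.23 and 9.96) and shp130 (10.14 and 10.11) lay just above vector and were not called. ACTA2, the other smooth muscle actin, read 10.46 and 10.39 with shRB and was not called (0.16). Cross-hybridisation between the probe sets of the 2 actin genes was not tested. The ACTG2 call had an adjusted p of 0.00868 and was lost without senescent vector replicate 2 (1.39, adjusted p 0.0784) or senescent shRB replicate 1 (1.22, adjusted p 0.102).

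MYL9 read 9.91 and 8.76 with shRB against 10.66 and 10.56, a change of -1.27 ± 0.41 that missed the threshold (adjusted p 0.0562) and passed it without senescent shRB replicate 1 (-1.85, adjusted p 0.0209). CALD1 was not called with either hairpin but differed between them, at 11.42 and 11.66 with shRB and 12.21 and 12.34 with shp107. It was 0.74 lower with shRB (limma, adjusted p 0.00140), a call lost with only the groups compared in the fit (adjusted p 0.213). In these comparisons 9.75% of all genes were called with shRB, 7.84% with shp107 and 1.67% with shp130, and no gene of the 10 was called with shp130.

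Experiment 2 tested shRB in senescent cells again. ACTG2 rose there too, from 8.95 and 9.07 to 10.89 and 10.80, by 1.83 ± 0.17 (adjusted p 0.000427), and the call stood without any 1 of the 4 arrays. MYL9 fell, from 10.46 and 10.51 to 9.53 and 8.91, by 1.26 ± 0.31 (adjusted p 0.0246), and this call was lost in 3 of 4 fits that left out an array, of either senescent vector array or of senescent shRB replicate 2 (adjusted p up to 0.149). NEXN read 8.88 and 8.49 against 9.22 and 9.20, a change of -0.52 ± 0.20 that was not called (adjusted p 0.103; 0.0433 with the replicate block). TAGLN read 10.32 and 10.07 against 9.48 and 9.55, a change of 0.68 that was not called (adjusted p 0.0597) but passed the threshold with quantile normalization (0.0405), the replicate block (0.0148) and only the groups compared (0.0190), and its change in experiment 1 was -0.31. In this comparison 20.1% of all genes were called. The NEXN change was thus -2.88 in experiment 1 and -0.52 in experiment 2, a difference that was not tested, and the fall of RB1 was 5.32 and 2.28.

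**Figure D4:**
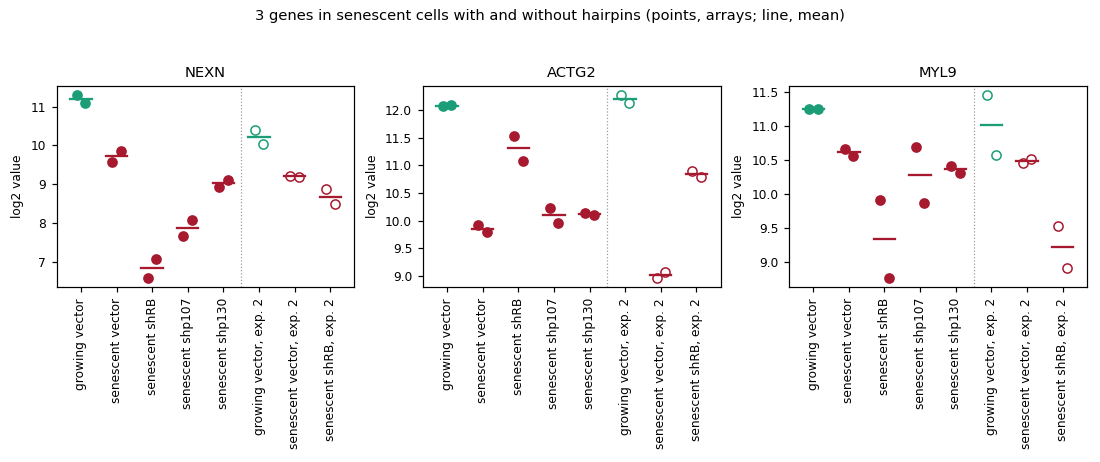
Log2 values (vertical axis) of NEXN, ACTG2 and MYL9 in growing vector cells and in the senescent groups of both experiments (horizontal axis); points are arrays, lines are means of 2 arrays, and open points are experiment 2. NEXN is lowest with shRB in experiment 1 (6.59 and 7.09), and in both experiments ACTG2 is higher and the MYL9 mean lower with shRB than with vector.

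The other probe sets of the genes show which part of a result hangs on the one chosen. For TPM1, the bright representative probe set changed least: its change was -0.61 at confluence, where the other 3 that passed the filter had -1.07, -1.93 and -2.19, and -0.44 in senescence, where the others had -0.72, -1.2 and -1.87, all called. The one that fell most also rose in low serum, by 1.29. TPM1 and CALD1 make many splice forms, and which form each probe set reads was not settled here. For CALD1, 3 of the 4 other probe sets that passed the filter fell at confluence (-1.34, -1.02 and -0.67), where the representative was not called.

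The second NEXN probe set rose in low serum (0.73, adjusted p 0.0256) and with shRB at confluence (0.65, adjusted p 0.0336), where the representative was not called. The second TPM2 probe set fell by 2.47 at confluence and was not called in senescence (-0.35), as the representative was not. The 2 other TAGLN probe sets fell too, with changes of -2.93 and -1.27 at confluence and of -2.84 and -1.59 in senescence. A CALD1 probe set whose name marks it as able to bind related transcripts fell with shRB in senescent cells of experiment 1 (-1.04) and rose in experiment 2 (1.04), while the representative was called in neither (-0.36 and 0.13).

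**Figure D5:**
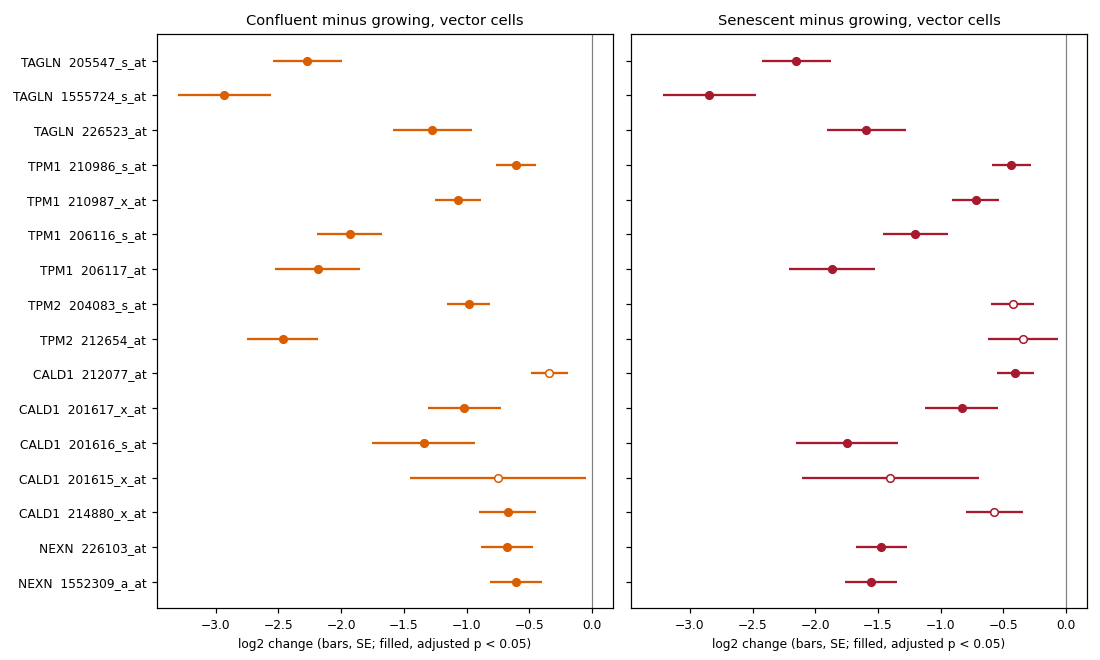
Log2 change from growing to confluent (left) and to senescent (right) vector cells (horizontal axes) for every probe set that passed the filter of the 5 genes with more than 1 such probe set (vertical axis); bars are SE, n = 2 arrays per group, and filled points have an adjusted p under 0.05. All changes are below 0, and the TPM1 probe sets range from -0.61 to -2.19 at confluence. The SE is pooled over all groups of the experiment.

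Around the 10 genes, a wider group of 75 genes of actin filaments, myosin control, adhesions and dense bodies, the SRF, YAP and TGF-beta regulators and their targets was examined, of which 69 matched and 59 passed the filter. At confluence 19 of the 59 fell and 4 rose in vector cells (median -0.43), where 14.5% of all genes tested were lower and 25.1% called. In senescence 25 fell and 3 rose (median -0.51), where 16.2% of all genes were lower and 25.4% called. The wider group too was chosen with earlier results of these data known, so these shares are descriptions. Without growing vector replicate 2 the confluent counts were 10 lower and 1 higher. Of 7 further actin filament genes 5 fell in each state, among them CNN2, TPM4 and TAGLN2 in both. The adhesion and dense body genes, with 19 tested, had 9 lower at confluence and 8 lower and 2 higher in senescence.

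Zyxin (ZYX, -2.44), synaptopodin 2 (SYNPO2, -2.34) and PDLIM7 (-2.31), all at adhesions or dense bodies, had the largest falls at confluence, and TGFBR1 (1.33), TGFB2 (1.27) and POSTN (1.23) the largest rises. In senescence MYH10, a nonmuscle myosin heavy chain, fell by 3.62, SMAD3 by 2.33 and SYNPO2 by 2.32, while supervillin (SVIL, 2.38), the matrix protein periostin (POSTN, 2.30) and paxillin (PXN, 1.08) rose. MYH10 fell by 3.29 in experiment 2 as well, where COL3A1 (-4.19) and MYOCD (-2.85) also fell and EDN1 (2.49), SMTN (1.30) and SMAD7 (1.18) rose. In low serum, POSTN (2.86), TGFB2 (2.41) and TGFBR1 (1.19) rose and TGFB1 (-1.80), SMAD7 (-1.77) and TAGLN2 (-1.02) fell.

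With shRB in confluent cells 22 of the 59 wider genes rose and 3 fell, and with shp107 14 rose and 3 fell, where 7.0% and 7.32% of all genes tested were higher. Without confluent vector replicate 1 the shRB rises were 12, as they were without confluent shRB replicate 1, and without confluent shp107 replicate 1 the shp107 rises were 6. TGFB2, a TGF-beta ligand, was lower with both hairpins at confluence. It read 5.82 and 6.20 with shRB and 6.07 and 6.87 with shp107, against 8.39 and 9.09 with vector, falls of 2.73 and 2.27. In growing cells, where none of the 10 genes was called with a hairpin, its means were 7.47 with vector, 6.07 with shRB and 6.63 with shp107. A link between TGFB2 and the 10 genes was not tested. In senescent cells the wider genes had 3 rises and 5 falls with shRB, 3 and 1 with shp107, and 0 and 1 with shp130, against 9.75%, 7.84% and 1.67% of all genes called.

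The transcript of SRF itself was not called in any of the 3 state comparisons of vector cells (-0.18 in low serum, -0.58 at confluence, -0.55 in senescence) nor with a hairpin at confluence. MRTFB fell in senescence, by 1.30 (adjusted p 0.0272), and MRTFA was not above the filter. TGFB1, a secreted inducer of myofibroblasts, read 4.74 and 5.74 in confluent vector cells against 7.29 and 7.47 in growing ones, so that it fell by 2.14 (adjusted p 0.0101), and was 7.65 and 6.46 in senescent cells. MYOCD, the smooth muscle cofactor myocardin, read 3.72 and 8.49 on the confluent vector arrays against 4.72 and 4.61 in growing cells. In experiment 2 it fell from 6.33 and 6.38 in growing cells to 3.59 and 3.42, near background, and MRTFB fell there by 1.08. The confluent vector array with the high MYOCD value is replicate 2, which also had the higher ACTA2, ACTG2, TAGLN and MYL9 of the pair. NEXN (10.45 against 10.58) and SRF (5.52 against 6.54) were lower on it than on replicate 1. A link between these values and MYOCD was not tested.

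Across the 16 group means of experiment 1, the genes outside the 10 whose profile was most like the mean of the 10 were GAS6 (Pearson r 0.981), CAMK2D (0.978), LASP1 (0.970), ATP8B1 (0.970), CHML (0.969) and PRDX6 (0.969). GAS6, a ligand of the TAM receptor kinases, averaged 11.71 in growing, 12.87 in low serum, 7.26 in confluent and 7.45 in senescent vector cells, and 11.39 in confluent cells with shRB as with shp107. The most opposite were the chemokines CXCL2 (-0.984) and CXCL3 (-0.981) and the survival factor BCL2A1 (-0.979). CXCL2 averaged 4.45 in growing and 3.31 in low serum vector cells against 10.85 in confluent and 10.68 in senescent ones, and 4.77 and 4.65 in confluent shRB and shp107 cells. These correlations are over groups that fall into clusters and describe the likeness of profiles in these arrays.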

How the data were processed

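The data are Affymetrix arrays of IMR90 cells, 38 arrays in 19 groups of 2, assigned from the labels. The deposited values are log2 values per probe set, made by the authors with GCRMA per the submitters' processing notes, and joint processing of both experiments remains not given in the sources used here. GCRMA takes off background by base composition, which spreads low values. The values were used as deposited.

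Probe sets were matched to genes through the platform's annotation: 41091 named 1 gene, 1801 several and 11721 none. For a gene with several, the brightest on average was used. The experiments were modelled separately in R 4.3.3 using limma 3.58.1, with 1 mean per group (residual degrees of freedom 16 and 3, prior 4.85 and 5.35), and p-values were adjusted by Benjamini-Hochberg over the 8511 genes within each contrast. Called means adjusted p under 0.05. Each other probe set was tested in the same way among all 13847 that named 1 gene and passed the filter. A gene was said to rise or fall where it was called. Errors are SE of a log2 change, from the spread of a gene pooled over all groups of its experiment and moderated across genes by limma.

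The number of arrays, 2 a group, limits the precision. Replicate numbers did not correlate in every pair of groups, so the fit reported has no block. Named besides the 10 genes were the largest 3 rises and 3 falls of the wider lists among called genes whose groups did not overlap, a set of regulators, the 6 most and 3 least like profiles, and the hairpin targets; CNN2 and TPM4 were named after their values were seen. The 10 genes and the lists were chosen with earlier results of these data known. The fit was tested on simulated data. Alternatives were quantile normalization, no filter, every probe set, only the groups compared, a replicate block, and leaving out each array. A fit with 1 array left in a group takes that array to vary like the other groups. Promoter windows are RefSeq's. Python 3.11.15 with pandas 2.3.3, numpy 2.4.6 and matplotlib 3.10.9 prepared tables and figures.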

Additional observations from a re-analysis of the deposited data

Results flagged for a closer look

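The effect of a hairpin differed between states for 13 pairs of gene and hairpin, by the test of the difference itself (limma, 4 groups of 2 arrays, adjusted over all genes tested). For shRB, the effect in confluent cells exceeded that in growing cells by 2.11 ± 0.48 (SE) in ACTA2, 3.01 ± 0.49 in ACTG2, 2.77 ± 0.42 in CNN1, 2.05 ± 0.39 in TAGLN, 1.00 ± 0.24 in TPM2 and 2.46 ± 0.58 in MYL9, with adjusted p from 0.000430 (CNN1) to 0.0265 (TPM2). For shp107 the excess was 2.11 ± 0.48 in ACTA2, 2.99 ± 0.49 in ACTG2, 3.0 ± 0.42 in CNN1, 1.93 ± 0.39 in TAGLN and 1.91 ± 0.42 in LMOD1, with adjusted p from 0.000150 (CNN1) to 0.0142 (ACTA2). All 11 differences rest on the 2 confluent vector arrays, which were unlike each other. Left-out arrays ended the call in 5 of 8 fits for ACTA2, 6 of 8 for TPM2 and 6 of 8 for MYL9 with shRB (adjusted p up to 0.101, 0.135 and 0.140), and in 4 of 8 for ACTA2 and 3 of 8 for LMOD1 with shp107 (up to 0.0785 and 0.0917). The ACTG2, CNN1 and TAGLN calls stood in every such fit. With only the 4 groups compared in the fit, all 11 calls were lost, with adjusted p from 0.0534 (CNN1 with shp107) and 0.103 (CNN1 with shRB) up to 0.348 (ACTA2 with shp107).

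The remaining 2 were in NEXN in senescent cells. Its change with shRB was more negative there than in growing cells, a difference of -2.74 ± 0.29 (adjusted p 1.10e-05), and likewise with shp107, a difference of -1.80 ± 0.29 (adjusted p 0.00331). With only the groups compared in the fit, the shp107 call was lost (adjusted p 0.133) and the shRB call was not. The groups behind them do not include the confluent arrays.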

How the results depend on the processing

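Of the changes of the 10 genes under each alternative, 5067 kept their direction and their side of the threshold, 217 lost a call and 43 gained one. A further 162, called in neither fit, changed sign, among them ACTA2 with shp130 at confluence (-0.39, and 0.58 without confluent vector replicate 2) and ACTG2 (0.39, and -0.55 without replicate 1). The change that reversed with a call was ACTA2 in senescent against confluent vector cells, 0.43 and not called, which became -0.55 (adjusted p 0.0320) without confluent vector replicate 1 and 1.40 without replicate 2. The fit to only the groups compared has 4 arrays and so fewer degrees of freedom, and it gave fewer calls where the confluent vector arrays enter: 2 of the 10 genes for confluent against growing (9 as reported), 0 for shRB at confluence (8) and 1 for shp107 at confluence (9). For low serum against growing it gave 0 in place of 1, while quantile normalization and no filter gave 2 each and every probe set 3. For shRB in senescent cells of experiment 2, every probe set gave 4 in place of 2.

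Leaving out 1 array at a time gave 0 to 1 called genes for low serum, 7 to 8 for confluent, 6 to 6 for senescent and 6 to 9 for senescent cells of experiment 2. It gave 7 to 8 for shRB and 8 to 9 for shp107 at confluence, and 1 to 2 for shRB in senescent cells of either experiment. Over all genes, the calls moved more: 909 to 1845 for confluent (2134 as reported, 352 with only the groups compared), 439 to 813 for low serum (1110, 656), 1337 to 1490 for senescent (2166, 2321), 1822 to 3441 for senescent cells of experiment 2 (3339, 3439). For shRB they were 751 to 1874 at confluence (1486, 75), 376 to 609 in senescent cells (830, 300) and 289 to 1227 in those of experiment 2 (1710, 2440), and for shp107 at confluence 641 to 1513 (1148, 129).

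Same-numbered arrays did not all deviate together: over 120 pairs of groups in experiment 1 the correlation of deviations ran from -0.376 to 0.490 (median 0.04), with 38 over 0.1 and 17 under -0.1, and over 3 pairs in experiment 2 from -0.136 to 0.625, with 1 over 0.1. The labels do not say what a number marks, so the numbers were not taken as pairs. With the replicate block, 4 genes in place of 2 were called for shRB in senescent cells of experiment 2, TAGLN and NEXN being added, and 7 in place of 8 for senescent against growing; the other 6 counts did not move. Signal limits the falls of CNN1 and LMOD1, which end near background.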
